A study of Mus musculus with 2 samples.

Results

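The histone genes of the mouse heart were taken as all genes whose symbol begins with Hist1h to Hist4h, H2af, H3f3 or H1f and that hold at least 1 protein-coding transcript. This gave 82 genes of the 55450 in the tables, or of 21901 protein-coding genes. Of these, 67 carry Hist1 to Hist4 names and are called clustered genes here, and 15 carry H2af, H3f3 or H1f names and are called replacement genes. Hearts of male B6CASTF1/J mice, the offspring of a cross between the strains B6 and CAST, were collected at 36 days of age as 1 group with 2 biological replicates. Total RNA, 300 ng per library, was made into stranded libraries after ribosomal RNA reduction with ERCC spike-ins, which are synthetic RNAs added at known amounts. The replicates are listed as separate biosamples with different male numbers in their descriptions, but under a single donor entry, and the sources used here do not say what that entry stands for. The libraries held 41846508 and 42481559 expected counts, so differences between the hearts describe the spread between 2 samples and no treatment or genotype was compared.

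Histones package DNA into nucleosomes, each built on a core of H2A, H2B, H3 and H4, with the linker histone H1 sealing the DNA at entry and exit. The clustered genes lack introns as a rule and are expressed mainly in S phase, and their mRNAs end in a stem-loop in place of a poly(A) tail. Replacement genes such as H3f3a and H3f3b are expressed through the cell cycle as polyadenylated mRNAs and supply histones outside replication, which matters in a tissue whose muscle cells have largely left the cell cycle.

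Each library was quantified by the authors in 2 ways, called the first quantification (expected counts per gene, with TPM, a level that allows for length and for depth) and the second quantification (estimated counts per transcript, summed per gene here). Levels below are TPM of the first quantification for replicate 1 and then replicate 2 unless another scale is named. In these hearts 63 of the 82 genes reached 1 TPM in both replicates, 54 clustered and 9 replacement, against 50% of all protein-coding genes. Together the 82 genes held 0.192% ± 0.010 of protein-coding TPM (SD, n = 2). The clustered genes supplied 63.8% of this histone TPM in replicate 1 and 68.1% in replicate 2. The same share of expected counts, which are not divided by length, was 52.8% and 56.6%. The median main transcript was 528 nt long for the clustered genes and 1069 nt for the replacement genes.

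Among the replacement genes, H3.3 mRNA was the most abundant. H3f3a, 1 of the 2 genes for the H3.3 protein (mm10 chromosome 1, 180800832 to 180813943, minus strand), stood at 185 TPM in replicate 1 and 169 TPM in replicate 2, rank 324 among protein-coding genes. H3f3b, the other (chromosome 11, 116021912 to 116027962, minus strand), stood at 41.3 TPM and 50.1 TPM. The 2 genes differed in opposite directions between the hearts, and their sum was 226 TPM and 219 TPM. H3f3a thus gave 81.7% and 77.1% of H3.3 TPM, and 74.2% and 68.7% of its expected counts. These levels cover all transcripts of both genes. Of the H3f3b TPM, 49.3% and 48.0% were assigned to H3f3b-204, which is annotated as a processed transcript and not as protein-coding. H3.3 made up 79.9% and 75.9% of all H3 TPM, the rest coming from 11 clustered H3 genes with reads.

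For H2A the larger class depended on the scale. The H2af genes gave 38.6% of H2A TPM in replicate 1 and 33.5% in replicate 2, but 56.1% and 53.3% of H2A expected counts and 59.1% and 56.1% of estimated counts. H2afv (H2A.V) and H2afz (H2A.Z), which encode closely related variants found at promoters, stood at 27.9 TPM and 25.97 TPM, and at 24.3 TPM and 22.3 TPM. H2afy, which encodes macroH2A1 with its large non-histone domain, stood at 18.2 TPM and 18.6 TPM over all its transcripts. Of that TPM, 42.8% and 37.85% were assigned to H2afy-204, a processed transcript not annotated as protein-coding. The protein-coding H2afy-202 held 43.74% and 51.65%, and H2afy-201 4.15% and 3.32%. H2afy2, the macroH2A2 gene, reached only 1.14 TPM and 1.33 TPM. H2afj stood at 12.8 TPM and 11.4 TPM and H2afx, whose product is phosphorylated at DNA breaks, at 4.11 TPM and 4.92 TPM. In all 6 of these genes the levels of both hearts lay close together, the log2 ratio of replicate 1 over replicate 2 on scaled expected counts running between -0.22 and 0.19. The H2A.B genes H2afb1, H2afb2 and H2afb3, known from testis, had 0 counts in both hearts and in both quantifications.

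Linker histones were led by a clustered gene. Hist1h1c (H1.2; chromosome 13, 23738808 to 23740367, plus strand) stood at 56.5 TPM and 68.7 TPM, which was 56.1% and 55.9% of all H1 TPM. H1f0, the replacement linker histone of differentiated cells, followed at 28.4 TPM and 29.2 TPM, or 28.2% and 23.8% of H1 TPM. Hist1h1e (H1.4) held 10.05 TPM and 17.1 TPM, with replicate 2 the higher. Hist1h1b and Hist1h1a, the H1.5 and H1.1 genes, stood at 2.63 TPM and 3.63 TPM and at 1.80 TPM and 2.77 TPM, and Hist1h1d (H1.3) at 0.60 TPM and 0.86 TPM. H1fx reached 0.74 TPM and 0.69 TPM. The testis gene Hist1h1t, the spermatid gene H1fnt and the oocyte gene H1foo had 0 counts in both hearts in both quantifications. A count of 0 allows up to 3 counts per library, or 0.0720 CPM in replicate 1 and 0.0710 CPM in replicate 2, the count scaled by library size.

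The clustered core histone genes were led by a few members. Hist1h4h, an H4 gene, stood at 89.6 TPM and 99.1 TPM (chromosome 13, 23531050 to 23531519, plus strand) and Hist2h2aa2, an H2A gene, at 72.8 TPM and 93.2 TPM. With Hist1h1c, the 3 highest clustered genes held 36.1% of clustered TPM in replicate 1 and 36.7% in replicate 2, and the median clustered gene stood at 4.24 TPM and 4.84 TPM. Next came the H4 gene Hist1h4m at 29.3 TPM and 31.2 TPM and the H2B gene Hist1h2bc at 28.0 TPM in both hearts. More H4 genes followed, Hist1h4d at 19.6 TPM and 25.0 TPM, Hist1h4c at 19.5 TPM and 19.1 TPM and Hist1h4k at 14.2 TPM and 19.95 TPM. Hist2h2bb, an H2B gene, completed the 10 highest with Hist1h1e, at 12.9 TPM and 21.9 TPM. By family the clustered genes summed to 209 and 240 TPM for H4, 141 and 168 TPM for H2A, 129 and 140 TPM for H2B, 71.5 and 93.1 TPM for H1 and 56.9 and 69.3 TPM for H3. Each of these 5 TPM sums was higher in replicate 2, though on scaled expected counts the H2B sums were nearly equal (log2 ratio -0.02).

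**Figure D1:**
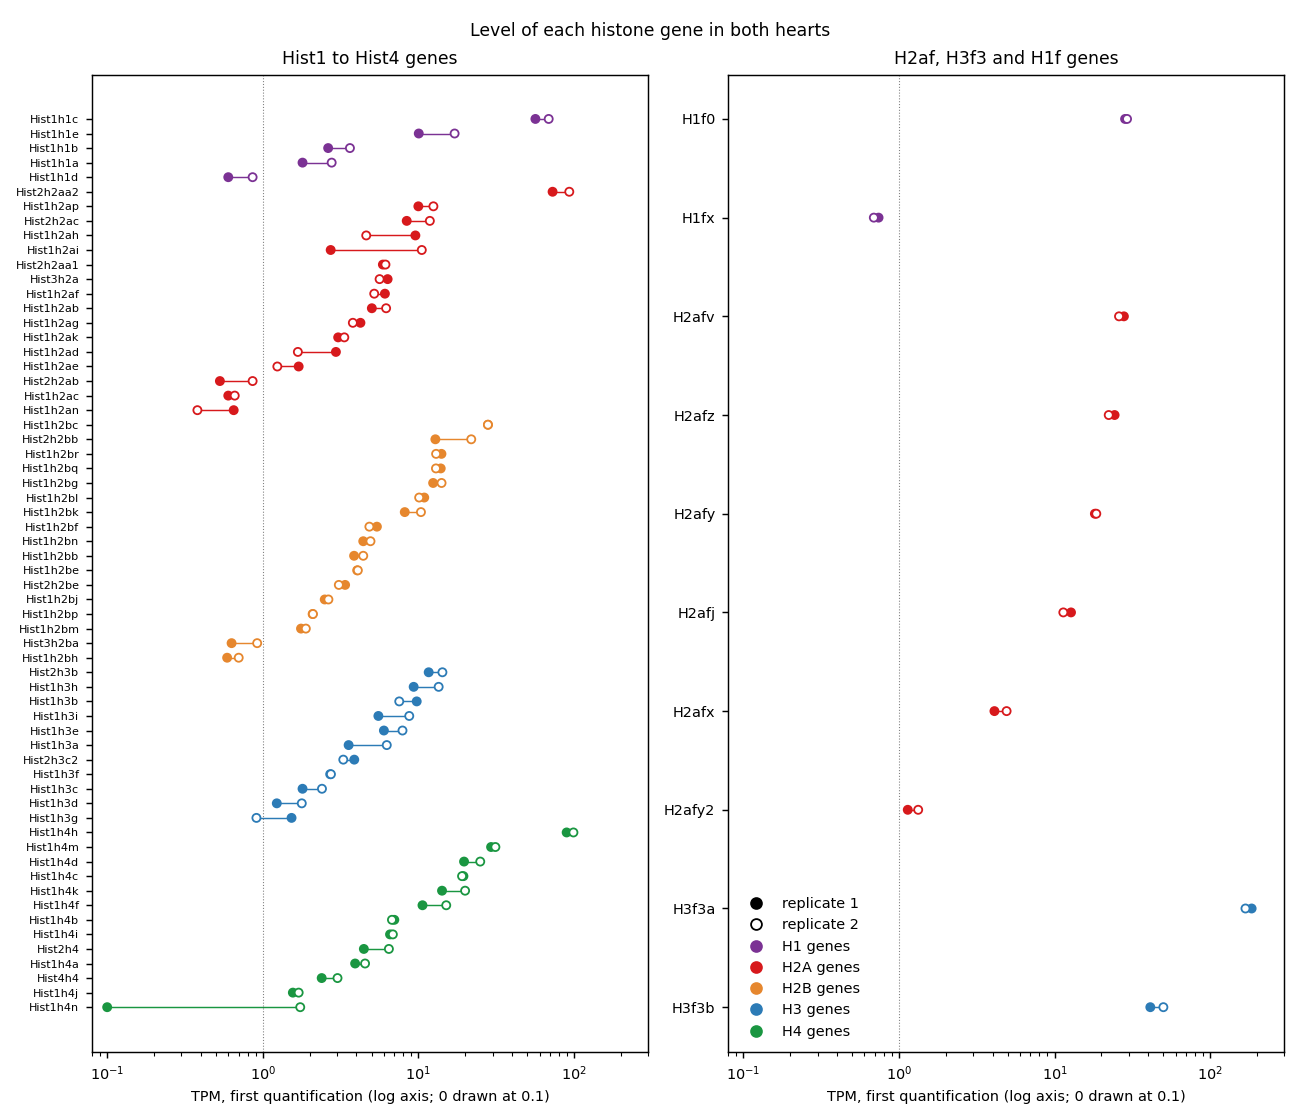
TPM of the first quantification (log axis) for every histone gene with reads, clustered genes at left and replacement genes at right, ordered by histone family and level. Filled circles are replicate 1, open circles replicate 2, a value of 0 is drawn at 0.1 and the dotted line marks 1 TPM. H3f3a lies furthest right at 185 and 169 TPM, and most pairs of circles lie close together, with the widest clustered gaps at Hist1h2ai and Hist1h4n.

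The clustered genes lie mostly on chromosome 13, with 54 of the 67 between 21715763 and 23934851, and 10 more on chromosome 3 between 96219865 and 96270132, 2 on chromosome 11 and 1, Hist4h4, on chromosome 6. On chromosome 13 they fall into a block of 23 genes up to 22043676 and one of 31 genes from 23531050. The first block summed to 157 TPM in replicate 1 and 180 TPM in replicate 2, and the second, which holds Hist1h4h, Hist1h1c and Hist1h2bc, to 316 TPM and 359.5 TPM. The counts of the first block depended on the quantification, with 1736.5 and 1998 expected counts against 513 and 571 estimated counts. That is a ratio of 3.44, against 1.22 for the second block. In the first block 20 of 23 genes reached 1 TPM in both hearts, and in the second 24 of 31. The other 7 of the second block were Hist1h1t, Hist1h2aa and Hist1h2ba, known from testis and at 0 expected counts in both hearts, and Hist1h1d, Hist1h2ac, Hist1h2bh and Hist1h3g, which had reads.

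Among the clustered genes 12 pairs of neighbouring H2A and H2B genes point away from each other with 176 to 306 nt between their annotated starts. The H2B gene was the higher in mean TPM in 9 of the 11 pairs with reads, and the pair of Hist1h2ba and Hist1h2aa had none in the first quantification. In the second quantification the H2B gene was the higher in 5 of the same 11 pairs and the H2A gene in 6, so no order of the families held in both. Levels within a pair could differ widely. Hist1h2bc, at 28.0 TPM in both hearts, faces Hist1h2ac, at 0.60 TPM and 0.66 TPM, and the second quantification gave a mean of 27.8 TPM for Hist1h2bc and 0.628 TPM for Hist1h2ac. The stretch between them is shown because both genes share it, as RefSeq gives it on GRCm38.p6 (chr13:23683960-23684198, minus strand, read toward Hist1h2ac). Capitals mark the CCAAT motif and its reverse complement ATTGG, the motif TATAAA, and the octamer ATTTGCAT, here as its reverse complement ATGCAAAT. All 3 motifs were searched on both strands.
Hist1h2ac: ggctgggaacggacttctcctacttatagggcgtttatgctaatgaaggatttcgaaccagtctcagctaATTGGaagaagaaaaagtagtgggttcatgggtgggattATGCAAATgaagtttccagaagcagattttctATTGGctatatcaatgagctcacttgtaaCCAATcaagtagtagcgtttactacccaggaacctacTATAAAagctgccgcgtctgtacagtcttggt
For comparison the 250 bases before the start of the leading linker gene Hist1h1c (chr13:23738557-23738806, plus strand) hold a single CCAAT, and those before the leading H4 gene Hist1h4h (chr13:23530794-23531043, plus strand) hold none of the 3 motifs and are therefore all in lower case.
Hist1h1c: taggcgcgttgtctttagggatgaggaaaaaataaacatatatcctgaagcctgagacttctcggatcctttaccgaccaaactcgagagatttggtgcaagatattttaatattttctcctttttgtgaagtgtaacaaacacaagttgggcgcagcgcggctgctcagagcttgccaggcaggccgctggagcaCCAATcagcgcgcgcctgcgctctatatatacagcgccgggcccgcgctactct
Hist1h4h: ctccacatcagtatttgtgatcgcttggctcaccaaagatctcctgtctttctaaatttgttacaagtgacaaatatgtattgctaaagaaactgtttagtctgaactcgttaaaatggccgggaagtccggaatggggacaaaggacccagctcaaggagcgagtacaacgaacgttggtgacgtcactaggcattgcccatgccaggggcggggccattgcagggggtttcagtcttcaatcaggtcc
RefSeq promoter windows, 250 bases before to 50 after a start, were found for 62 of the 67 clustered and 14 of the 15 replacement genes. CCAAT on either strand was in 53 of the 62 clustered windows (85.5%) and 10 of the 14 replacement windows (71.4%), against 37.9% of all 27025 gene windows. Every clustered H1, H2A, H2B and H3 window held it, but only 3 of 12 H4 windows. TATAAA was in 56.5% of clustered windows against 14.2% of all windows, and the octamer in 13 of the 62 against 1.75%, in clustered genes only before H2A genes (7 of 18) or H2B genes (6 of 16). The windows of facing H2A and H2B genes can overlap, as for Hist1h2ae and Hist1h2bg, so the same site may be counted for both genes. A match describes letters in these windows and does not show that a factor binds there.

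The stem-loop that ends replication-dependent histone mRNA was looked for as a stem arm GGNNCT, a loop TNTN and a stem arm AGNNCC in direct succession. The search covered the sense strand of every annotated transcript of the members, and of the protein-coding transcripts of the other genes. The stem-loop was found in 46 of 67 clustered genes (68.7%), in 1 of 15 replacement genes, H2afx, and in 0.408% of the other 21819 protein-coding genes. In the main transcript, the one of highest level, it was present in 45 clustered genes and began 21 to 58 nt after the stop codon, with a median of 31 nt. Of the 22 main transcripts without it, 17 are annotated with at most 2 nt after the stop codon, short of the 21 nt at which the nearest stem-loop began. The sites below are those of the leading gene of each family and of H2afx, with 5 bases on either side in lower case and the stem-loop in capitals, written as DNA.
Hist1h1c: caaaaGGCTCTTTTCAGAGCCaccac
Hist2h2aa2: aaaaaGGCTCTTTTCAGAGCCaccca
Hist1h2bg: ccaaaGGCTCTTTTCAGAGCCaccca
Hist1h3b: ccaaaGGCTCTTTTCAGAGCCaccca
Hist1h4h: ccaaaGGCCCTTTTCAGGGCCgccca
Hist1h4i: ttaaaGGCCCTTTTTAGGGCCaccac
H2afx: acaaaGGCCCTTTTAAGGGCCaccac
These sites lie on mm10 at chr13:23739507-23739532 (plus), chr3:96239779-96239804 (minus), chr13:23571838-23571863 (plus), chr13:23752815-23752840 (plus), chr13:23531453-23531478 (plus), chr13:22040961-22040986 (minus) and chr9:44335235-44335260 (plus). Hist1h2bg and Hist1h3b stand for H2B and H3 as the highest genes of their families whose main transcript holds the site, and Hist1h4i shows a second H4 form. In main transcripts the form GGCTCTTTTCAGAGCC was shared by 25 genes of H1, H2A, H2B and H3, while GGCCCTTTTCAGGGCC was held by 7 genes, all H4, and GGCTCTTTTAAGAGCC by 6.

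Of the 45 clustered main transcripts with a stem-loop, 23 end within 100 nt after it and 22 run on for more than 100 nt, Hist1h1d the furthest with 4884 nt. The 22 longer models held 6589 of 13185 clustered expected counts in replicate 1 and 8116 of 15601 in replicate 2, that is 49.97% and 52.0%. Of those 22, 10 carry the poly(A) signal AATAAA in their last 40 nt, and of the 23 short ones none does. Per length the short models were the higher, summing to 286 TPM and 333 TPM, against 161 TPM and 192 TPM for the longer ones. How many reads lie past the stem-loop of a given gene cannot be read from counts per transcript.

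Between the hearts, log2 ratios of replicate 1 over replicate 2 were taken on expected counts scaled by TMM (trimmed mean of M-values), so a negative value means higher in replicate 2. With 2 hearts the smallest p that an exact permutation of signs allows is 0.5, so differences are described by size and by a 95% exact interval that covers counting error only. Of 69 members averaging at least 10 expected counts, 45 were higher in replicate 2 and 24 in replicate 1, against 50.3% of all 15744 such genes higher in replicate 2. The median was -0.09 over these members and near 0, at -0.0012, over all genes. Clustered genes had a median of -0.11, with 39 of 59 higher in replicate 2, and replacement genes a median of -0.02, with 6 of 10. Of the 45 members higher in replicate 2, 36 were so in the second quantification too, 30 of the 39 clustered and all 6 replacement genes. The counting interval lay wholly below 0 for 17 of the 69 members, against 13.8% of all genes, and wholly above 0 for 5, against 14.9%.

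Summed expected counts show the same split between the classes. The clustered genes summed to 13185 in replicate 1 and 15601 in replicate 2, a log2 ratio of -0.20 with an interval of -0.23 to -0.16. The replacement genes summed to 11778 and 11985, a log2 ratio of 0.02 with an interval of -0.02 to 0.06. In the second quantification the log2 ratios of these sums were -0.15 and 0.03. The clustered families were not alike. In the first quantification the log2 ratio was -0.35 for H1, -0.16 for H2A, -0.18 for H3, -0.19 for H4 and -0.02 for H2B. The H2B interval of -0.10 to 0.06 held 0. In the second quantification the family ratios ran from -0.29 for H1 to 0.01 for H2B. In bulk tissue fewer cells of a type and less RNA per cell cannot be told apart.

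The clustered linker genes differed in 1 direction. All 5 with enough counts were higher in replicate 2, with a median log2 ratio of -0.47, and the same 5 were higher in replicate 2 in the second quantification, with a median of -0.41. Hist1h1e had 620 expected counts in replicate 1 and 1057 in replicate 2, a log2 ratio of -0.72 with an interval of -0.87 to -0.58. Hist1h1c had 2777 and 3393 (-0.24, -0.32 to -0.17), and Hist1h1d 148 and 212 (-0.47, -0.79 to -0.16). The intervals of Hist1h1a and Hist1h1b, with 39 and 60 and with 57 and 79 expected counts, reached above 0. H1f0, by contrast, had 1870 and 1933, a log2 ratio of -0.00 with an interval of -0.10 to 0.09. The Hist1h1e model overlaps Hist1h2be on the same strand and shares 21.7% of its 100-nt windows with it, so reads from the overlap cannot be assigned to 1 gene. Hist1h2be itself had 302 and 305 expected counts.

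Among the 55 members averaging at least 50 expected counts, 2 differed 2-fold or more, 3.64% against 1.28% of all 12536 such genes, and both are H2A genes. One was higher in replicate 1, as were 1.01% of all genes, and the other in replicate 2, as were 0.279%. Hist1h2ah had 98.45 expected counts in replicate 1 and 47.75 in replicate 2, a log2 ratio of 1.07 with an interval of 0.56 to 1.60. Hist1h2ai had 27.0 and 104, a log2 ratio of -1.87 with an interval of -2.57 to -1.28. They differed in opposite directions. In the second quantification Hist1h2ah kept its direction, with 26.02 and 9.44 estimated counts, and Hist1h2ai had the other one, with 46.1 and 24.4. Neither averaged 50 counts there, and the only member at 2-fold by the same rule was Hist1h2ap, another H2A gene, with 34.5 and 75.2 estimated counts. The share of all genes at 2-fold in the second quantification was not computed. Hist1h2ah and Hist1h2ai share 87.9% and 88.4% of their 100-nt windows with other genes. The posterior SD deposited with the expected counts was 32.7% of the count for Hist1h2ah and 31.8% for Hist1h2ai. At 1.5-fold, 6 members differed, against 4.27% of all genes, 5 of them higher in replicate 2 (1.69% of all genes) and 1 in replicate 1 (2.58%). Besides Hist1h2ai these 5 were Hist1h1e, Hist2h2bb, Hist1h3a and Hist1h3i, the last 3 with log2 ratios of -0.72, -0.76 and -0.61. The intervals of these 5 lay wholly below 0.

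**Figure D2:**
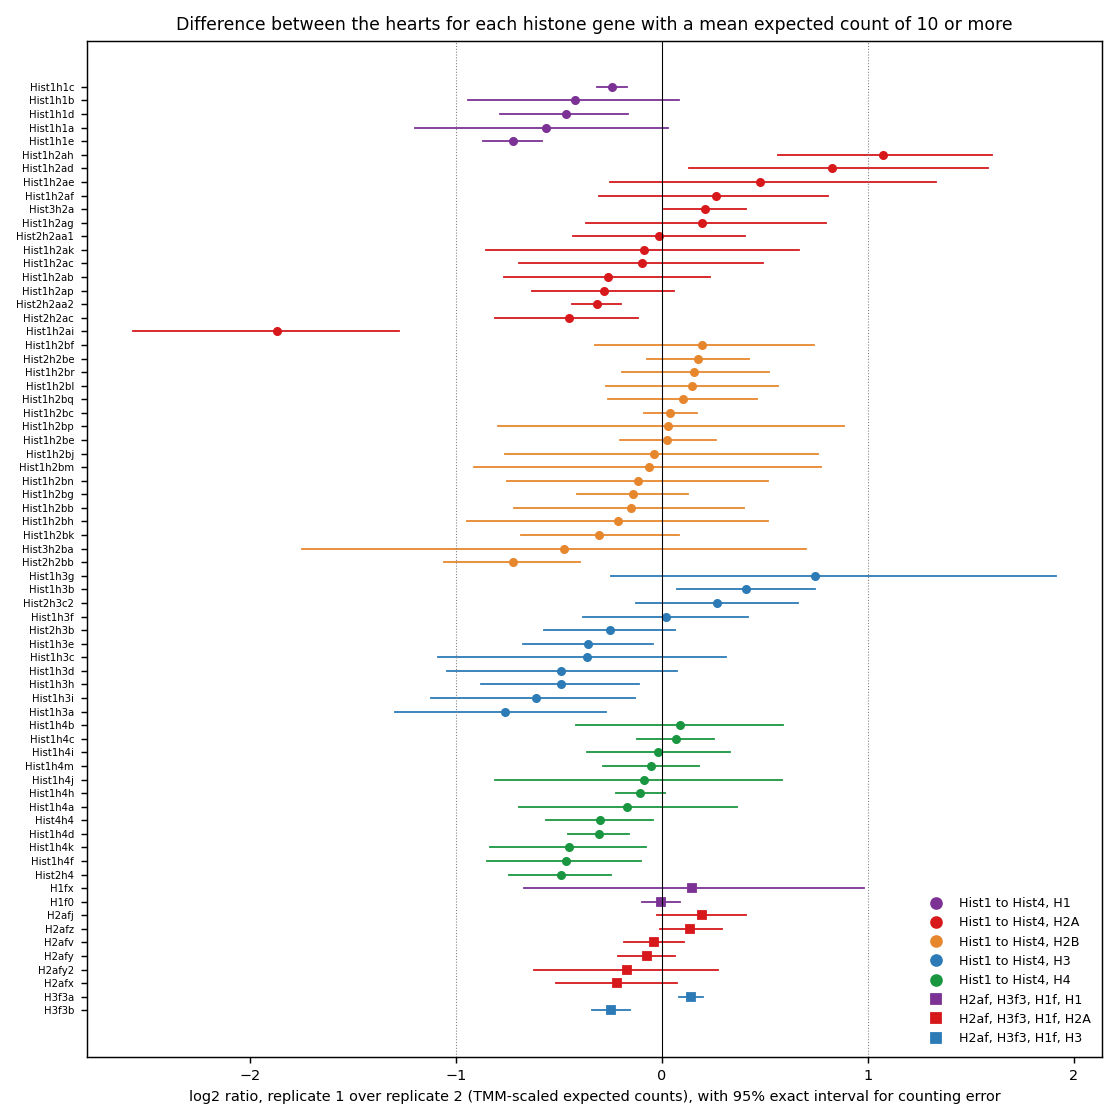
Log2 ratio of replicate 1 over replicate 2 for each histone gene averaging at least 10 expected counts, clustered genes as circles above and replacement genes as squares below, coloured by family. Lines are 95% exact intervals for counting error and dotted lines mark 2-fold. All 5 clustered H1 genes lie left of 0, Hist1h2ah and Hist1h2ai lie past 2-fold on opposite sides, and the replacement genes lie between -0.25 and 0.19.

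Genes that make, process or handle histones were measured in the same hearts. Of 17 genes for histone mRNA processing, 16 reached 1 TPM in both hearts, against 50% of all protein-coding genes. The gene that did not was Zfp473, at 0.05 TPM in both hearts. None of the 17 differed 2-fold, and the median log2 ratio was -0.02. The highest were the Sm protein genes Snrpb, at 49.96 TPM and 50.8 TPM, and Snrpd3, at 23.6 TPM and 25.7 TPM, and the scaffold gene of the cleavage complex Sympk, at 31.4 TPM and 31.5 TPM. Slbp, which encodes the stem-loop binding protein, stood at 6.05 TPM and 5.05 TPM, and Npat, the coactivator of histone genes, at 1.97 TPM and 2.58 TPM. These 2 were chosen after their values were seen.

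Of 8 genes for chaperones coupled to replication, 5 reached 1 TPM in both hearts, against 50% of all protein-coding genes. They were led by Rbbp4 (27.5 TPM and 26.02 TPM), Nap1l1 (21.03 TPM and 22.4 TPM) and the FACT subunit Ssrp1 (14.4 TPM and 15.4 TPM). The genes below 1 TPM were Asf1b and the CAF-1 subunits Chaf1a and Chaf1b, at 0.73, 0.45 and 0.35 TPM on average. All 11 genes for chaperones and remodellers of replacement histones reached 1 TPM in both hearts, against the same 50%. The highest of them were Anp32e, the H2A.Z chaperone (24.6 TPM and 30.5 TPM), Atrx (23.8 TPM and 22.7 TPM) and Srcap (18.4 TPM and 19.2 TPM). The median log2 ratios of these lists were 0.03 and -0.06.

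Of 26 genes of S phase and the cell cycle, 15 reached 1 TPM in both hearts, against 50% of all protein-coding genes, and the median stood at 1.27 TPM. The highest were Pcna, the replication clamp, at 14.0 TPM and 12.96 TPM, the helicase gene Mcm7 at 3.24 TPM and 4.33 TPM, and Rrm1, a subunit of ribonucleotide reductase, at 2.92 TPM and 3.54 TPM. Of the 26, 18 were higher in replicate 1 and 8 in replicate 2, with a median log2 ratio of 0.13. Among all genes averaging at least 10 expected counts, 50.3% were higher in replicate 2. The clustered histone genes had a median of -0.11. Among the 26 the counting interval lay wholly above 0 only for E2f2 (0.93 to 1.86). It lay wholly below 0 for Mcm6 (-0.62 to -0.06) and Mcm7 (-0.55 to -0.06). E2f2 had 142 expected counts in replicate 1 and 56 in replicate 2, the only one of these genes at 2-fold.

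Several marker lists of other cell types also differed between the hearts. In replicate 1 all 7 red cell genes were higher (median log2 ratio 1.19, summed level 20329 TPM and 9336 TPM), as were all 4 fat cell genes (3.58, summed level 60.8 TPM and 3.99 TPM). Replicate 2 was the higher for 8 of 9 heart muscle genes (median -0.09), with a summed level of 31724 TPM and 34815 TPM. Macrophage, endothelial and fibroblast lists had medians of 0.0016, 0.03 and 0.22. None of 5 lymphocyte and thymus genes reached 1 TPM in both hearts, with summed levels of 0.48 TPM and 1.24 TPM and Ptcra at 0 in both. The part of these cells in the histone differences was not tested.

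Both quantifications were made from the same libraries, so their comparison shows how far a histone value depends on the quantification. At a mean count of 10 or more in either, 33 of 71 members differed 2-fold or more between the first and the second, 46.5% against 10.6% of all 17101 genes. Of these, 26 were higher in the first, against 3.48% of all genes, and 7 in the second, against 7.11%. All 33 were clustered genes, of 61 compared, and on counts none of the 10 replacement genes was among them. On TPM, with 1 added, 18 of the 71 differed 2-fold or more, 10 with the first higher and 8 with the second. The share of all genes on TPM was not computed, so these 18 cannot be set against the 10.6% on counts. They included 1 replacement gene, H2afj. H2afj had 12.8 TPM and 11.4 TPM in the first quantification and 6.19 TPM and 4.85 TPM in the second. H3f3a had 185 TPM and 169 TPM in the first and 286 TPM and 260 TPM in the second, while its counts were close. It had 5142 and 4807 expected counts and 5238 and 4842 estimated counts, and H1f0 had 1870 and 1933 against 1866 and 1935.

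The sums by class show where counts differ. Replacement genes held 11778 and 11985 expected counts against 11942 and 12057 estimated counts, a ratio of 0.990 for the first over the second. Clustered genes held 13185 and 15601 against 9855 and 11275, a ratio of 1.36. By family the ratio was 1.08 for clustered H1, 1.18 for H2B, 1.21 for H2A and 1.31 for H3, and 2.71 for H4. The 13 H4 genes held 3538 and 4151 expected counts but only 1368 and 1469 estimated counts, and 11 of the 13 differed 2-fold or more singly, 10 of them with the first higher. On the TPM scale the H4 sums were close, 209 and 240 TPM against 200 and 221 TPM, but this did not hold gene by gene. Hist1h4h was higher in the second quantification, at 89.6 and 99.1 TPM against 134 and 153 TPM, as were Hist1h4a and Hist1h4n. The other H4 genes were lower there, such as Hist1h4d at 19.6 and 25.0 TPM against 2.83 and 2.90 TPM. The second quantification divides by shorter effective lengths, with a median of 215 nt for the main H4 transcripts against 440 nt in the first.

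**Figure D3:**
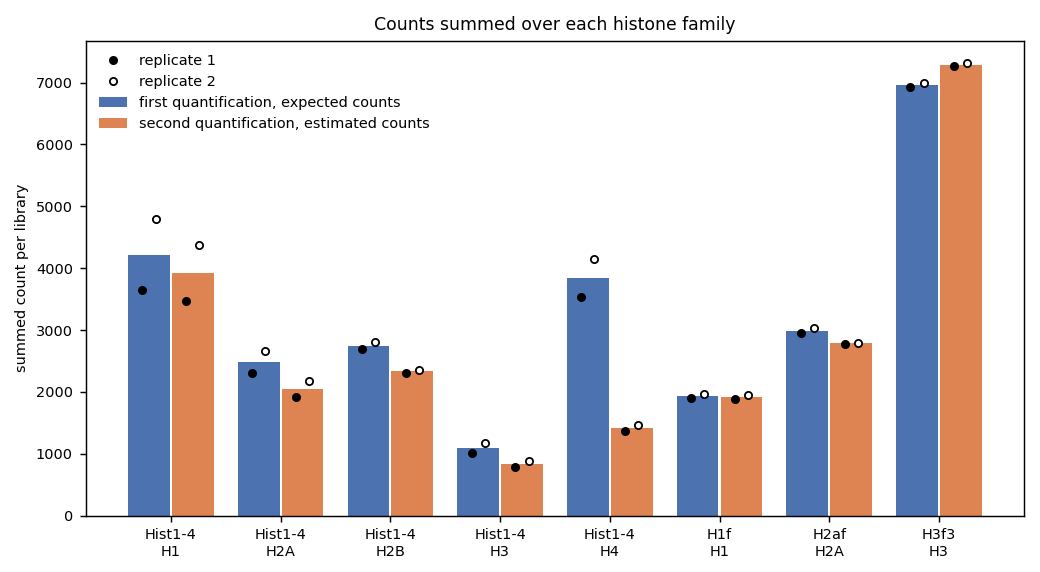
Counts summed over the genes of each histone family, expected counts of the first quantification in blue and estimated counts of the second in orange. Bars are means of both hearts and filled and open circles are replicates 1 and 2. The clustered H4 bar of the first quantification, with 3538 and 4151, is 2.71 times that of the second, while the H1f, H2af and H3f3 bars are nearly equal.

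For some pairs of near-identical copies the split between copies differed more than the sum. Hist2h2aa1 and Hist2h2aa2 have identical coding sequences. The first quantification gave 97.0 and 101 counts to Hist2h2aa1 and 1051 and 1351 to Hist2h2aa2, and the second gave 1051 and 1286 to Hist2h2aa1 and 0 to Hist2h2aa2. Their sums, 1148 and 1452 expected counts and 1051 and 1286 estimated counts, differed by a ratio of 1.11. The level given above for Hist2h2aa2 is the part that the first quantification assigned to that copy, and the pair summed to 78.7 TPM and 99.3 TPM. Both copies also share windows with Gm20634, a processed transcript that overlaps Hist2h2aa1 and held 195 and 194 expected counts.

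Hist1h2bq and Hist1h2br, likewise identical in coding sequence, went another way. The pair had 272 and 256 expected counts and only 7.80 and 9.49 estimated counts, a ratio of 30.5, and so the mean levels of 13.4 and 13.5 TPM in the first quantification stood against 0.0711 and 0.0796 TPM in the second. Hist1h4m and Hist1h4n had 299 and 339 counts together against 93.5 and 100, a ratio of 3.29. Hist1h4n alone had 0 and 19.5 expected counts against 28.8 and 21.03 estimated counts. Hist1h2ao and Hist1h2ap had 129 and 162 together against 34.5 and 75.2. Hist1h2ao was listed at 0 in both, as was Hist2h3c1, all of whose windows are shared with other genes, so that 0 does not show that these copies were silent.

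Some H4 genes with little or no shared sequence also differed widely. Hist1h4d shares no 100-nt window with another gene, and it had 687 and 877 expected counts against 79.0 and 81.0 estimated counts. Hist2h4, also without a shared window, had 230 and 334 against 73.0 and 87.0. Hist1h4f, with 18.2% of its windows shared, had 104 and 149 against 4.06 and 6.06, and Hist1h4b, with 44.0% shared, had 70.2 and 68.1 against 9.12 and 4.04. Hist1h4c, Hist1h4k and Hist1h4h differed by ratios of 2.95, 4.78 and 1.55. Windows match exactly at 100 nt, so shorter stretches in common are not counted, and the cause of these differences was not tested.

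H2B genes followed. Hist1h2bl had 103 and 96.4 expected counts against 5.58 and 4.36 estimated counts, Hist1h2bk 104 and 132 against 13.8 and 23.8, and Hist2h2bb 122 and 208 against 12.0 and 46.0. With these the 10 members that exceeded most in the first quantification were Hist2h2aa2, Hist1h2bq, Hist1h2br, Hist1h4f, Hist1h2bl, Hist1h4d, Hist1h4b, Hist1h2bk, Hist2h2bb and Hist1h4k. Hist2h2bb shares 45.4% of its windows with Gm42743, a long noncoding RNA gene that overlaps it on the same strand.

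Few members went the other way, and 7 were 2-fold or more higher in the second quantification. Hist1h2ba, a testis H2B gene, had 0 expected counts in both hearts and 47.75 and 73.4 estimated counts, so its detection rests on the quantification used. Besides Hist2h2aa1 and Hist1h4n, Hist1h2ad had 46.9 and 26.8 against 155 and 169, Hist1h2be 302 and 305 against 767 and 790, Hist1h2ae 34.5 and 25.3 against 68.5 and 61.2, and Hist1h1d 148 and 212 against 311 and 440. The remaining 3 of the 10 highest in the second, Hist1h2bb, Hist1h2bf and Hist1h3f, stayed under 2-fold, with log2 ratios of the first over the second of -0.77, -0.59 and -0.42.

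**Figure D4:**
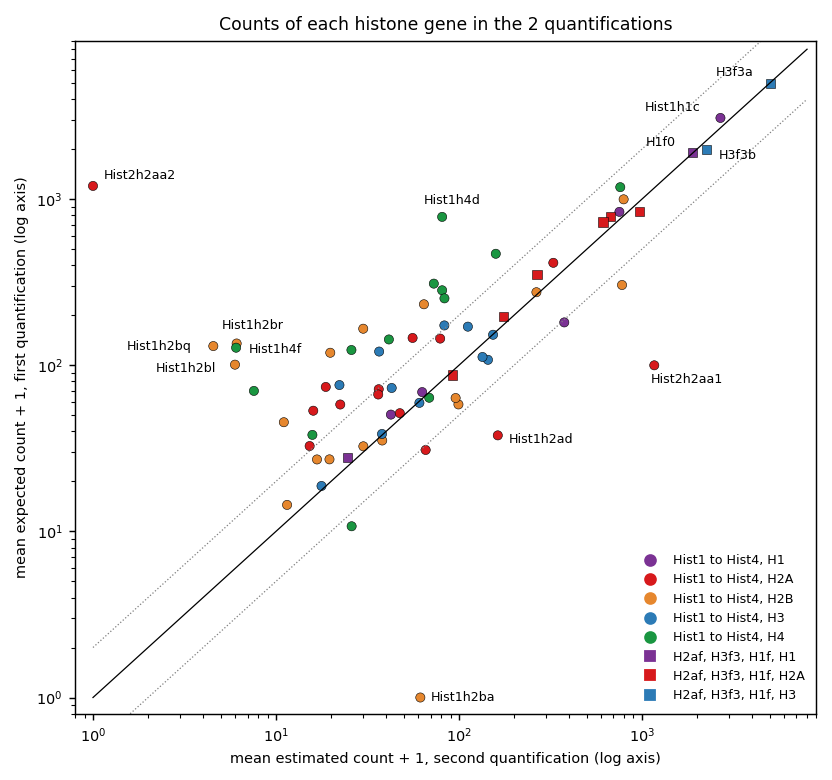
Mean expected count of the first quantification (vertical) against mean estimated count of the second (horizontal) for the 71 histone genes with 10 or more in either, 1 added to each, on log axes. The solid line marks equality and the dotted lines 2-fold, circles are clustered genes and squares replacement genes. All squares lie between the dotted lines, while Hist2h2aa2 at upper left and Hist1h2ba at the bottom hold counts in 1 quantification only.

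Shared sequence went with the uncertainty deposited for each count. In 11 members without a shared 100-nt window the posterior SD had a median of 0% of the count, in 37 with up to 50% of windows shared 4.09%, and in 23 with more than 50% shared 17.0%. A posterior SD over 10% was found for 26 of 69 members (37.7%), all of them clustered, against 4.15% of all genes. A difference of 2-fold or more between quantifications was found in 2 of the 11, 14 of the 37 and 17 of the 23. The 2 without shared windows were Hist1h4d and Hist2h4, whose deposited SD was 0.22% and 0% of the count, so this SD did not cover the difference between the quantifications. Within families the coding sequences are alike, with a median identity over pairs of equal length of 97.5% for H3, 97.1% for H2B, 96.7% for H2A and 93.9% for H4.

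**Figure D5:**
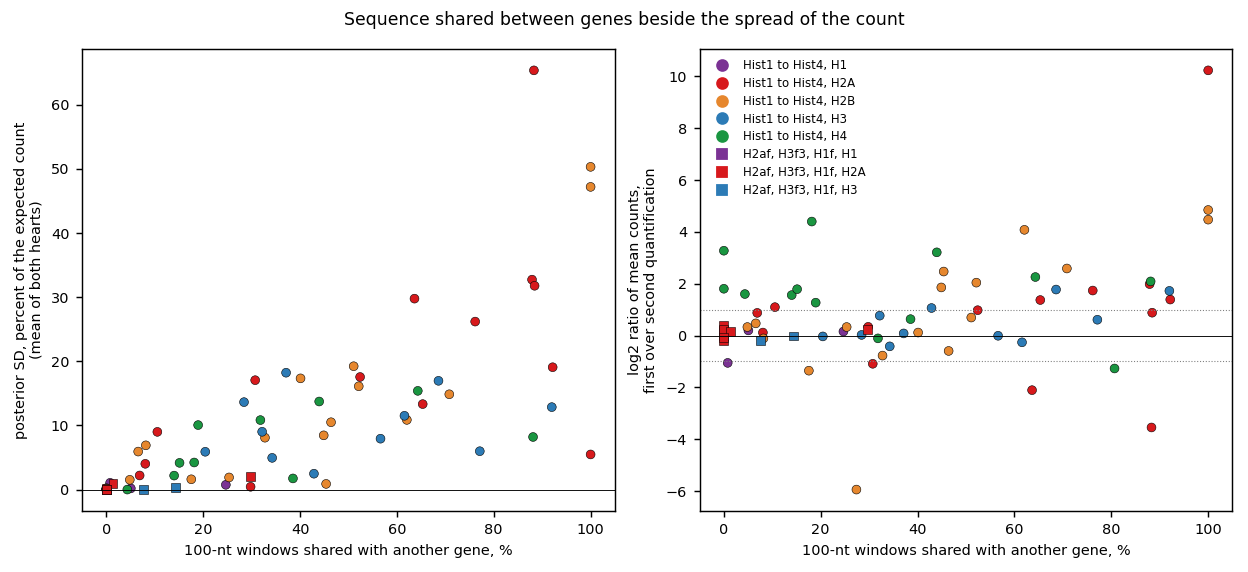
Percent of a gene's 100-nt windows found in another gene's transcripts (horizontal) against the posterior SD as a percent of the expected count (left) and the log2 ratio of mean counts of the first over the second quantification (right). Points are histone genes averaging at least 10 counts (expected counts at left, either quantification at right), circles clustered and squares replacement, and dotted lines mark 2-fold. Points at left have an SD near 0%, the 2 green circles at 0% in the right panel are Hist1h4d and Hist2h4, the highest ratio, of Hist2h2aa2, lies at 100% and the lowest, of Hist1h2ba, at 27.4%.

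Single transcripts of the replacement genes also differed between the quantifications. For H3f3b the gene totals were close, 1788 and 2190 expected counts against 2029 and 2469 estimated counts, but the transcript H3f3b-201 had 1185 and 1485 in the first and 0 in the second, while H3f3b-202 had 26.3 and 15.2 in the first and 1666 and 2016 in the second. H3f3b-204, a processed transcript, had the highest TPM of the gene in the first quantification, with 531 and 629 counts against 255 and 328. H3f3a was split in both among H3f3a-201, with 2508 and 2192 expected counts against 1902 and 1655 estimated counts, and H3f3a-207, with 1641 and 1573 against 2418 and 2206. For H2afy the transcript H2afy-202 had 491 and 594 against 404 and 498, while H2afy-201, also protein-coding, had 49.4 and 40.6 against 286 and 274. H2afj-202 had 142 and 127 against 7.91 and 0, and this shorter transcript carried 69.3% and 68.8% of the gene's TPM in the first quantification.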

How the data were processed

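Total RNA-seq of 2 hearts of 1 group was used. Expected counts per gene, with a posterior SD, are the authors' first quantification, deposited and made from transcriptome alignments to mm10 with GENCODE M21, per the sample notes. TPM and FPKM were deposited by the authors beside them, scaled over all entries including spike-ins. The percent of a gene's TPM in each transcript was also deposited. The authors also deposited a second quantification, with estimated counts and TPM for each transcript, which was summed per gene here. The score used is the posterior SD that the authors deposited, in counts. The tools are not named in the sources used here. In the first quantification a transcript's effective length equals its length less 99 nt, as found from the values.

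Genes were joined by gene ID. Spike-ins held 203838 and 199815 expected counts and were left out of the scaling. Expected counts were scaled by TMM factors (edgeR 4.0.16, R 4.3.3) over 15098 genes, with a prior count of 1 for log2 ratios. Intervals are exact 95% Clopper-Pearson intervals on the counts of both libraries. Because reads lack molecular identifiers and may be copies of 1 molecule, intervals and floors cover counting error only. Size rules were 2-fold at a mean expected count of 50 between hearts and 2-fold at a mean count of 10 in either quantification, with no test. Windows of 100 nt were matched exactly on the same strand between the GENCODE M21 transcripts of different genes. Promoters came from RefSeq (GRCm38.p6).

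Named are the 10 clustered and 10 replacement genes of highest mean TPM, members at 2-fold between hearts, the 10 that differed most between quantifications in each direction, members at 0, and from each list the 3 highest genes and any at 2-fold. Genes named outside this rule were picked with their values in view. The members and lists were chosen with earlier results of these data known. Alternatives covered thresholds, units, count minimums, library totals, DESeq2 1.42.0 size factors, spike-in totals, the second quantification and each library alone.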

Additional observations from a re-analysis of the deposited data

Results flagged for a closer look

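Genes that match the symbols but hold no protein-coding transcript were left out of the values above, and 3 of them held more than the 3 counts that a listed 0 allows in both hearts. Hist1h2al, annotated as a processed pseudogene, had 126.67 and 167 expected counts, or 15.7 TPM and 20.6 TPM, but 0 estimated counts in both hearts. H3f3c, a processed pseudogene related to H3f3a, had 64.41 and 92.2 expected counts, and 0 estimated counts. H3f3aos, an antisense gene that overlaps H3f3a, had 73 and 78 expected counts and 93.9 and 92.8 estimated counts. Hist1h2al was thus above the median clustered gene in the first quantification and at 0 in the second. The cause of these differences was not tested.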

How the results depend on the processing

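No paired analysis was possible because the hearts form 1 group. At 5 TPM the detected members were 36, with 70 at 0.5 TPM and 63 in the second quantification. From expected counts in place of TPM the share of the clustered genes was 54.7%, that of H3.3 in H3 86.4%, that of the H2af genes in H2A 54.7% and that of the H1f genes in H1 31.6%. From the second quantification the clustered share was 61.6% and the H2af share 30.5%. Members at 2-fold between hearts numbered 6 at 1.5-fold, 1 at 3-fold and 1 in the second quantification, 2 under each other scaling and 3 with no count minimum. In the second quantification neither Hist1h2ah nor Hist1h2ai averaged 50 counts (17.7 and 35.2), and the 1 gene there was Hist1h2ap, with a log2 ratio of -1.06. The log2 ratio of Hist1h2ai there was 0.93, against -1.87 as reported, and the cause was not tested. The clustered median between hearts was -0.16 at a mean count of 50, -0.19 on spike-in totals and -0.15 in genes with at most 50% of windows shared, an alternative chosen after seeing the data. On spike-in totals the replacement median was -0.094 and the median of all genes moved by -0.07. Between quantifications 15 members differed 4-fold, 18 differed 2-fold on TPM, and of 8 family sums, also chosen after seeing the data, 1 differed 2-fold. Shares of all genes were computed only for the reported rules and for 1.5-fold between hearts. The numbers of members called under the other settings therefore have no background. Each library alone gave 64 and 64 detected members and 33 and 33 between quantifications, with clustered shares of 63.8% to 68.1%. Of the remaining values, on named members, 213 stayed within their bounds and 44 moved beyond them. The bound of a TPM was the SD of both hearts, and each heart always lies within that SD of their mean. The TPM values of each library alone therefore stayed within their bounds by construction and are no check. Depth limits members under 10 counts, and near-identical copies limit single-gene values at any depth.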
